A study of Neurospora crassa with 6 samples.

Results

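The transcription factor genes csp-1 (NCU02713), adv-1 (NCU07392), sub-1 (NCU01154) and hsf-2 (NCU08480) of the filamentous fungus Neurospora crassa are described here across cultures of a clock mutant and its control. They were chosen by locus tag, and they are 4 of the 9730 genes in the deposited expression table. All 4 had a mean of at least 1 FPKM (sequenced fragments, divided by transcript length and by library size) over the 6 cultures, as 7797 genes did, and all 4 were tested. The mutant strain, 1810, has the genotype ras-1bd prd-2::barR MAT A, in which the clock gene period-2 (prd-2) is disrupted by a resistance marker. The control strain, 328-4, has the genotype ras-1bd MAT A. The ras-1bd allele, which makes the daily rhythm of spore formation visible, and the mating type are therefore shared by both strains. For each strain, 3 shaken liquid cultures were kept in constant light at 25 °C for 48 h. The medium was Bird medium with glucose at 1.8%, and polyadenylated RNA was sequenced. The study asked what prd-2 does in the circadian clock.

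In Neurospora, the White Collar Complex of WC-1 and WC-2 is both the blue-light receptor and the activator of the clock gene frq. It also activates genes for further transcription factors, which pass the light signal and the daily rhythm on to other genes. CSP-1 (conidial separation) is a zinc finger repressor that acts with the RCM-1 and RCO-1 corepressors and also represses wc-1. ADV-1 (arrested development) is a zinc cluster factor needed for hyphal fusion and fruiting body formation. SUB-1 (submerged protoperithecia) is a GATA-type zinc finger factor that acts in light responses and in fruiting body formation. HSF-2 belongs to the heat shock factor family and is needed for asexual spore formation.

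Each genotype was 1 strain, so other differences between the strains cannot be told apart from the loss of prd-2. No culture was a time point, so the values are levels in constant light and not rhythms. The transcript of the disrupted gene, NCU01019, measured 6.29 to 7.69 FPKM in the mutants and 24.7 to 27.3 FPKM in the controls. That of ck-1a (casein kinase I, NCU00685), the clock-relevant target named by the study, measured 206 to 211 FPKM in the mutants and 331 to 342 FPKM in the controls. Summed FPKM per culture lay between 664476 and 688885 in the mutants and between 657467 and 672543 in the controls. Correlations of log2 values across genes were 0.989 to 0.996 for culture pairs within a strain and 0.938 to 0.961 between strains. Genes listed as markers of conidia (asexual spores), a cell type other than the vegetative hyphae of liquid culture, were transcribed in both strains. Of 6 conidial markers, 5 reached 1 FPKM in every culture and con-13 was at or near 0. Among these markers, con-6 and con-10 are also listed as light-response genes and eas as a clock-controlled gene. The markers con-8, con-13 and fl are on neither of those lists. Whether conidia were present was not tested, and marker transcripts alone do not show it. The summed level of the 6 markers was 1356 to 3192 FPKM in the mutants and 1815 to 1992 FPKM in the controls. The highest sum, in mutant replicate 1, came mostly from the hydrophobin gene eas at 2382 FPKM. The part of these markers in the changes below was not tested.

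Of the 4 genes, csp-1 and hsf-2 rose in the mutant, adv-1 fell, and sub-1 did not pass the test. The changes that passed were between 0.26 and 0.40 log2 units in size. With limma, 47.8% of all tested genes passed an adjusted p threshold of 0.05, with 24% higher and 23.8% lower in the mutant. The mutant and control values did not overlap for the same 3 genes, where this held for 59.8% of all tested genes. The 3 calls among 4 genes therefore stand in a transcriptome of which a large share was called. In whole cultures, less RNA per cell and fewer cells of a type that carries it cannot be told apart.

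csp-1 was the most abundant of the 4 in both strains. It measured 53.5, 53.8 and 47.9 FPKM in the mutants, against 41.4, 41.4 and 42.5 FPKM in the controls. All mutant values lay above all control values, as for 30.5% of the tested genes. The means were 51.7 ± 3.33 FPKM in the mutants and 41.8 ± 0.645 FPKM in the controls (SD, n = 3 each). In the mutants the mean stood at 124% of its control level, a log2 fold change of 0.30 (SE 0.060, 95% interval 0.16 to 0.44, limma adjusted p = 0.00547). The control cultures were close to each other, with a coefficient of variation of 1.54%, where the median tested gene had 6.37%. Of the 1870 genes called higher in the mutant, 1260 rose further than csp-1.

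adv-1 moved the other way, and its change was the largest of the 4. It measured 24.4, 24.1 and 23.8 FPKM in the mutants, against 31.5, 30.7 and 34.5 FPKM in the controls. The groups did not overlap, and all mutant values lay below all control values for 29.3% of the tested genes. The means were 24.1 ± 0.268 FPKM in the mutants and 32.2 ± 2.05 FPKM in the controls (SD, n = 3 each). In the mutants the mean stood at 74.8% of its control level, a log2 fold change of -0.40 (SE 0.059, 95% interval -0.54 to -0.26, limma adjusted p = 0.00134). Here the mutant cultures were the tight group, with a coefficient of variation of 1.11%. Of the 1855 genes called lower, 1138 fell further than adv-1.

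hsf-2 rose by about as much as csp-1, with less certainty. It measured 32.0, 29.8 and 27.7 FPKM in the mutants, against 23.7, 23.8 and 26.5 FPKM in the controls. The groups did not overlap, although mutant replicate 3 at 27.7 FPKM and control replicate 3 at 26.5 FPKM were close. The means were 29.8 ± 2.15 FPKM in the mutants and 24.7 ± 1.59 FPKM in the controls (SD, n = 3 each). In the mutants the mean stood at 121% of its control level, a log2 fold change of 0.26 (SE 0.073, 95% interval 0.09 to 0.43, limma adjusted p = 0.0210). The call did not hold without mutant replicate 1 (log2 fold change 0.21, limma adjusted p = 0.0668) or mutant replicate 2 (0.26, adjusted p = 0.0568). It was also lost without control replicate 1 (0.24, limma adjusted p = 0.0549) or control replicate 2 (0.24, adjusted p = 0.0766). With the replicate number as a block it was lost too (limma adjusted p = 0.0571), and likewise on the TPM scale (adjusted p = 0.0537).

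sub-1 was the least abundant of the 4 in both strains. It measured 14.4, 15.3 and 14.1 FPKM in the mutants, against 14.8, 13.6 and 16.6 FPKM in the controls. The groups overlapped, since all 3 mutant values lay between the lowest and the highest control value. The means were 14.6 ± 0.640 FPKM in the mutants and 15.0 ± 1.53 FPKM in the controls (SD, n = 3 each). That is -0.03 as a log2 fold change, with an SE of 0.080, a 95% interval from -0.22 to 0.15 and a limma adjusted p of 0.748. The 95% interval of hsf-2 (0.09 to 0.43) overlaps that of sub-1, and those of csp-1 and adv-1 do not. Ratios to sub-1 within a culture are compared below. RefSeq annotates 2 transcripts of sub-1, and the table gives 1 value for the gene, so the transcripts could not be compared.

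**Figure D1:**
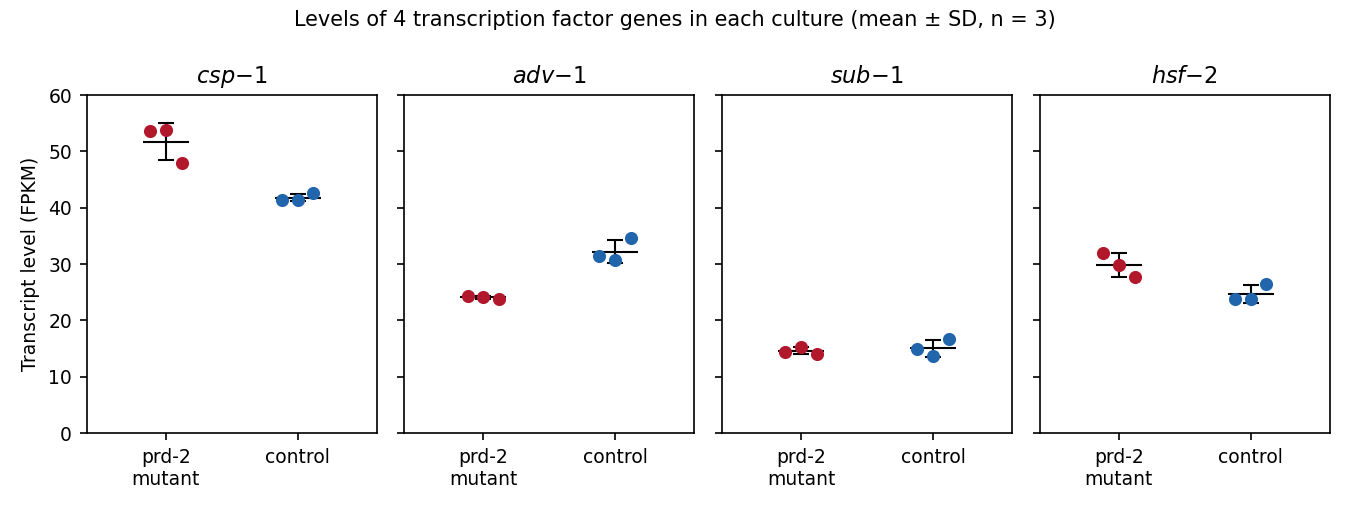
Transcript level in FPKM (vertical axis, from 0) of csp-1, adv-1, sub-1 and hsf-2 in single cultures of the prd-2 mutant (red) and the control (blue), with the mean and SD of 3 cultures. The mutant points lie above all control points for csp-1 and hsf-2, below them for adv-1, and among them for sub-1.

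The order of the levels, which FPKM allows since it is scaled to transcript length, differed between the strains. In the mutant the order was csp-1, hsf-2, adv-1 and sub-1, and in the control it was csp-1, adv-1, hsf-2 and sub-1. No neighbours in either order had overlapping ranges. In the mutant the lowest hsf-2 value of 27.7 FPKM stood above the highest adv-1 value of 24.4 FPKM. In the control the lowest adv-1 value of 30.7 FPKM stood above the highest hsf-2 value of 26.5 FPKM. Among all tested genes, the control mean of csp-1 was above 68.2%, that of adv-1 above 61.3%, that of hsf-2 above 52.7% and that of sub-1 above 37.3%.

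Ratios between the genes within a culture do not depend on how libraries were scaled to each other, and 6 pairs were compared. They are formed from the same values as the changes above, so they are not independent of those changes or of each other. How often such ratios are free of overlap among all tested genes was not computed. The hsf-2 level was 1.31, 1.23 and 1.16 times that of adv-1 in the mutants, against 0.754, 0.775 and 0.767 times in the controls. The csp-1 level was 2.20, 2.23 and 2.01 times that of adv-1 in the mutants, against 1.32, 1.35 and 1.23 times in the controls. Both ratios to adv-1 lay higher in every mutant culture, by 0.69 log2 units for hsf-2 and 0.72 for csp-1. The ratios to sub-1 did not overlap either. The mutant-minus-control difference was 0.34 log2 units for csp-1 over sub-1, 0.31 for hsf-2 over sub-1 and -0.38 for adv-1 over sub-1. Each of these 5 pairs had p = 0.1 in a two-sided exact permutation test, the smallest p that 3 against 3 cultures allow (adjusted over the 6 pairs, 0.12).

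The ratio of csp-1 to hsf-2 was the one that overlapped. It was 1.67, 1.81 and 1.73 in the mutants, against 1.75, 1.74 and 1.61 in the controls. The difference was 0.03 log2 units (exact permutation p = 0.7). It became -0.007 without control replicate 3.

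**Figure D2:**
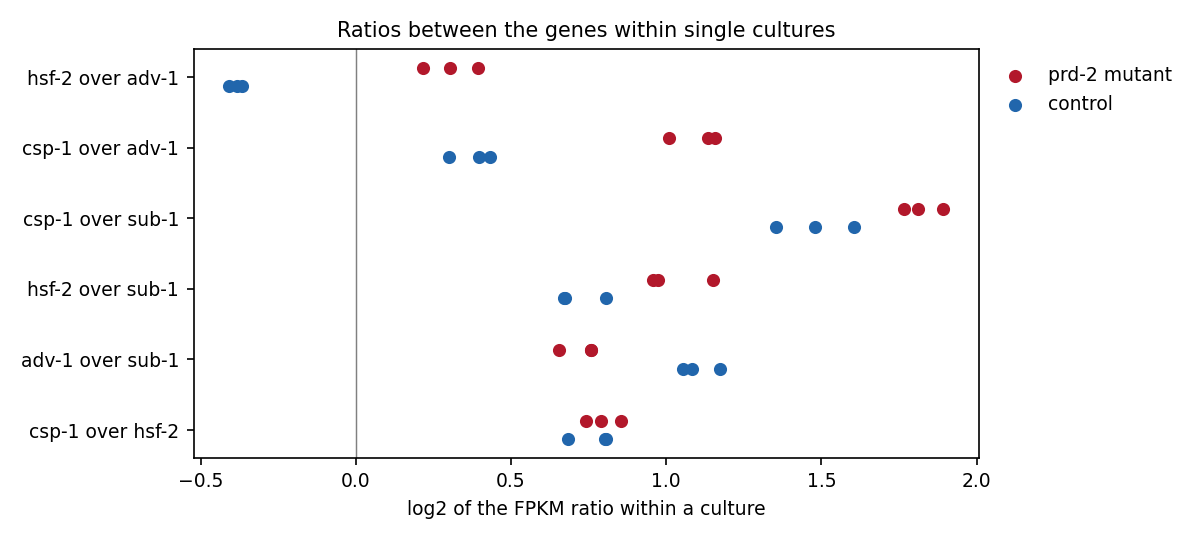
Log2 of the FPKM ratio of 2 genes within a culture (horizontal axis) for the 6 pairs of genes, with each prd-2 mutant culture in red above each control culture in blue. The strains are separate in 5 pairs, and only the csp-1 to hsf-2 ratio overlaps.

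Replicate 3 had the same place in its group for all 4 genes. Mutant replicate 3 was the lowest mutant culture and control replicate 3 the highest control culture for csp-1, adv-1, sub-1 and hsf-2. Both positions held together for 789 of the tested genes, or 10.1%. Without mutant replicate 3 the log2 fold change was 0.35 for csp-1 and 0.31 for hsf-2. Without control replicate 3 it was 0.31 for csp-1, 0.31 for hsf-2 and -0.35 for adv-1, and sub-1 turned to 0.04 (limma adjusted p = 0.712).

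**Figure D3:**
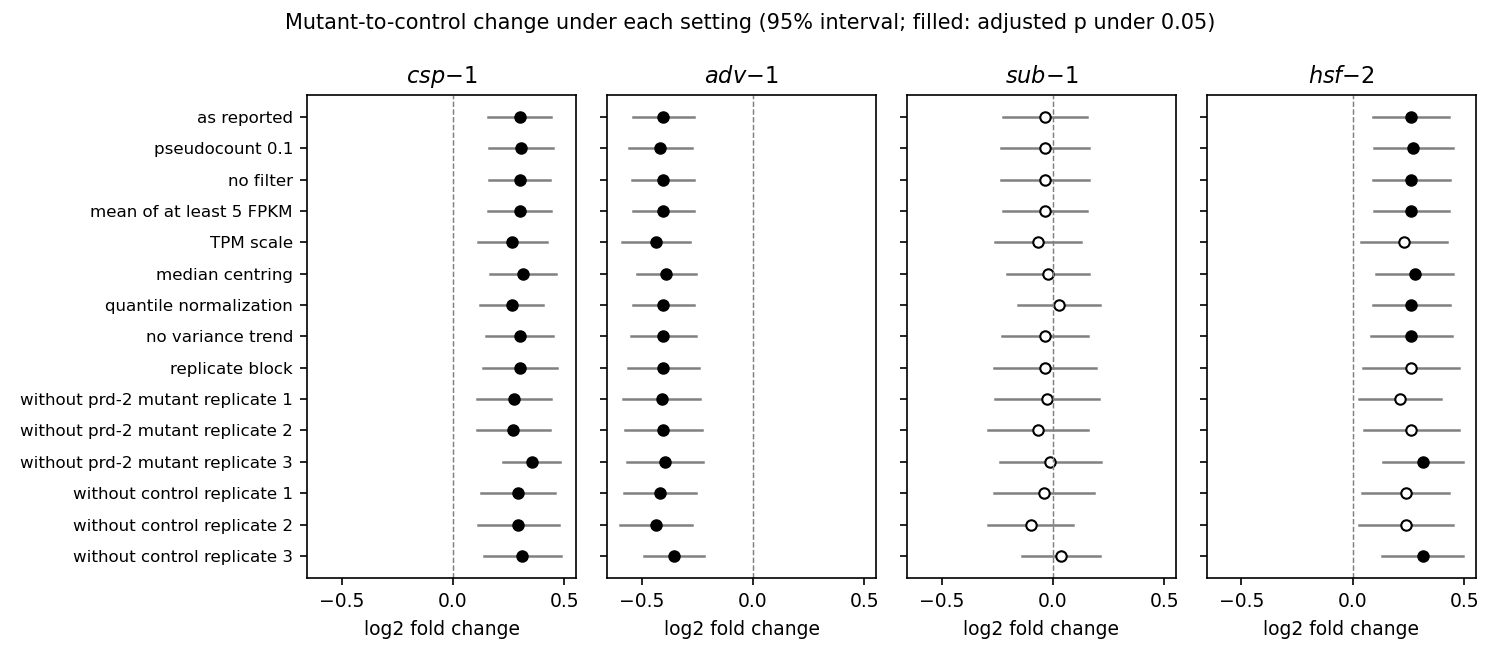
Log2 fold change of FPKM + 1, prd-2 mutant over control (horizontal axis), with its 95% interval, for each gene under the reported setting and 14 alternatives (vertical axis). Filled points passed an adjusted p of 0.05, which csp-1 and adv-1 did in all 14 alternatives, hsf-2 in 8 and sub-1 in 0.

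Upstream of these genes lies the loop of the White Collar Complex and FRQ. Of its 5 listed genes, 3 passed the test, a share near the 47.8% of all tested genes. wc-2, the partner of WC-1 and itself a GATA-type factor like SUB-1, measured 32.2, 32.3 and 30.1 FPKM in the mutants, against 40.01, 40.8 and 39.7 FPKM in the controls. It fell by 0.34 log2 units (limma adjusted p = 0.0015). frq fell by 0.32 log2 units (limma adjusted p = 0.00146), with 29.2 to 30.8 FPKM in the mutants and 37.7 to 38.0 FPKM in the controls. For wc-1, which CSP-1 represses, the log2 fold change was -0.09 (limma adjusted p = 0.191), with 28.1 to 30.4 FPKM in the mutants and 30.7 to 31.9 FPKM in the controls.

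The last members of that loop are the blue-light sensor VVD and the FRQ partner FRH. For vvd the log2 fold change was -0.05 (limma adjusted p = 0.481), with 549 to 585 FPKM in the mutants and 579 to 587 FPKM in the controls. frh rose by 0.17 log2 units (limma adjusted p = 0.0342), with 16.1 to 17.4 FPKM in the mutants and 14.4 to 14.9 FPKM in the controls. This call was lost without mutant replicate 2 or 3 or any single control culture, at 0.14 to 0.19 log2 units (limma adjusted p from 0.0594 to 0.104), and on the TPM scale (0.14, adjusted p = 0.0751). The lowest FPKM value of vvd, 549, stood far above the highest of csp-1, 53.8.

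A list of light-response genes, which again holds frq and vvd, moved both ways. Of 13 tested, 3 were higher and 7 lower in the mutant (frq included), a share called of 76.9% against 47.8% of all tested genes. The median log2 fold change was -0.23, against 0.009 for all tested genes. The largest called rise was that of the conidiation gene con-6, with 129, 131 and 91.6 FPKM in the mutants, against 16.6, 21.9 and 20.04 FPKM in the controls (log2 fold change 2.51, limma adjusted p = 3.61e-05). Its annotated span overlaps that of NCU08768, so its value is uncertain. The largest called fall was that of the opsin gene nop-1, with 13.6, 11.8 and 11.9 FPKM in the mutants, against 28.3, 30.3 and 27.4 FPKM in the controls (log2 fold change -1.15, limma adjusted p = 3.66e-05). con-6 is also a conidial marker, as is con-8, which fell by 0.92 log2 units (limma adjusted p = 0.000127). Of the 5 conidial markers tested, 1 was higher and 2 were lower, a share called of 60%, with a median of -0.28.

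Among clock-controlled genes, 11 were tested, and 2 were higher and 3 lower, with a median log2 fold change of 0.14. The share called, 45.5%, was near the 47.8% of all tested genes. Among the called genes, the largest rise was that of ccg-15 (0.51 log2 units, limma adjusted p = 0.00892) and the largest fall that of ccg-16 (-2.13 log2 units, limma adjusted p = 0.000225). ccg-16 measured 1602, 2479 and 2286 FPKM in the mutants, against 11272, 9250 and 7245 FPKM in the controls. Without control replicate 2 the count of calls in this list was 3.

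The 4 genes were next set beside other transcription factor genes. That list again holds wc-1 and wc-2 (wc-2 among those lower), and it shares fl with the conidial markers and pp-1 with the hyphal fusion genes. Of 42 tested, 7 were higher and 11 lower in the mutant, and 24 did not pass, a share called of 42.9% against 47.8% of all tested genes, with a median log2 fold change of -0.07. The 3 largest rises among the called genes were those of cpc-1, ada-6 and csp-2. cpc-1, the regulator of amino acid synthesis, measured 2518, 2453 and 2716 FPKM in the mutants, against 1304, 1358 and 1499 FPKM in the controls (log2 fold change 0.89, limma adjusted p = 0.000141). csp-2, a Grainyhead-type factor that like csp-1 is named for conidial separation, measured 25.1, 24.7 and 24.0 FPKM in the mutants, against 21.4, 19.1 and 18.4 FPKM in the controls. Its log2 fold change of 0.31 (limma adjusted p = 0.00718) was close to the 0.30 of csp-1.

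ada-6, a factor needed for several stages of development, rose by 0.72 log2 units (limma adjusted p = 0.0238). The call was lost without mutant replicate 1 (0.55, limma adjusted p = 0.0689), control replicate 1 (0.53, adjusted p = 0.0509) or control replicate 2 (0.73, adjusted p = 0.0634).

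The 3 largest falls among the called factors were those of xlr-1, cre-1 and sah-1. xlr-1, the xylanase regulator, fell by 0.79 log2 units to 1.97, 2.19 and 2.14 FPKM in the mutants, against 4.84, 4.45 and 3.79 FPKM in the controls. The added 1 FPKM shrinks the change at such low levels. With a pseudocount of 0.1 the log2 fold change of xlr-1 was -1.01. cre-1, the carbon catabolite repressor, fell by 0.75 log2 units to 112, 94.0 and 102 FPKM in the mutants, against 200.04, 165 and 157 FPKM in the controls. sah-1 (short aerial hyphae) fell by 0.45 log2 units. Their limma adjusted p-values were 0.000754, 0.00121 and 0.00364. The changes of csp-1, adv-1 and hsf-2 were thus smaller than the largest among other factors. hsf-1, another heat shock factor gene singled out after its values were seen, had a log2 fold change of -0.07 (limma adjusted p = 0.478), and its span overlaps other genes.

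Lists of genes linked to single members were counted in the same way. For CSP-1, the list held its corepressors rco-1 and rcm-1 and 3 ergosterol genes. Of the 5, 2 were higher and 0 lower, a share called of 40% against 47.8% of all tested genes. The median log2 fold change was 0.12. The largest called rise was that of erg-1 (0.97 log2 units, limma adjusted p = 0.00495), with 985, 1255 and 906 FPKM in the mutants, against 409, 548 and 662 FPKM in the controls. The corepressor genes did not pass the test. Only 1 call was left in this list without mutant replicate 1 or 2 or control replicate 1 or 2.

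For ADV-1, hyphal fusion genes were counted. Of 15 tested, 1 was higher and 3 were lower, a share called of 26.7% against 47.8% of all tested genes, with a median log2 fold change of 0.05. The largest fall was that of ham-5, the scaffold of the fusion MAP kinase cascade, with 9.20, 9.43 and 9.61 FPKM in the mutants, against 15.8, 14.5 and 15.7 FPKM in the controls (log2 fold change -0.65, limma adjusted p = 0.000165). The 1 gene called higher was ham-2 (0.16 log2 units, limma adjusted p = 0.0255), whose span overlaps NCU03728. Its call was lost without any 1 mutant culture or control replicate 2 or 3, at 0.14 to 0.17 log2 units (limma adjusted p from 0.0523 to 0.0783), and on the TPM scale (0.13, adjusted p = 0.0696).

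For HSF-2, 10 heat shock protein genes were tested, and 6 were higher and 0 lower. That is a share called of 60%, against 47.8% of all tested genes (24% higher and 23.8% lower). The median log2 fold change was 0.19. Heat shock factors as a family activate such genes, and whether HSF-2 acts on these ones is not known from these data. The largest rise was that of the Hsp70-family gene hsp70-5, with 204, 185 and 228 FPKM in the mutants, against 122, 145 and 165 FPKM in the controls (log2 fold change 0.52, limma adjusted p = 0.0113). Without control replicate 2 the count of calls in this list was 3.

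**Figure D4:**
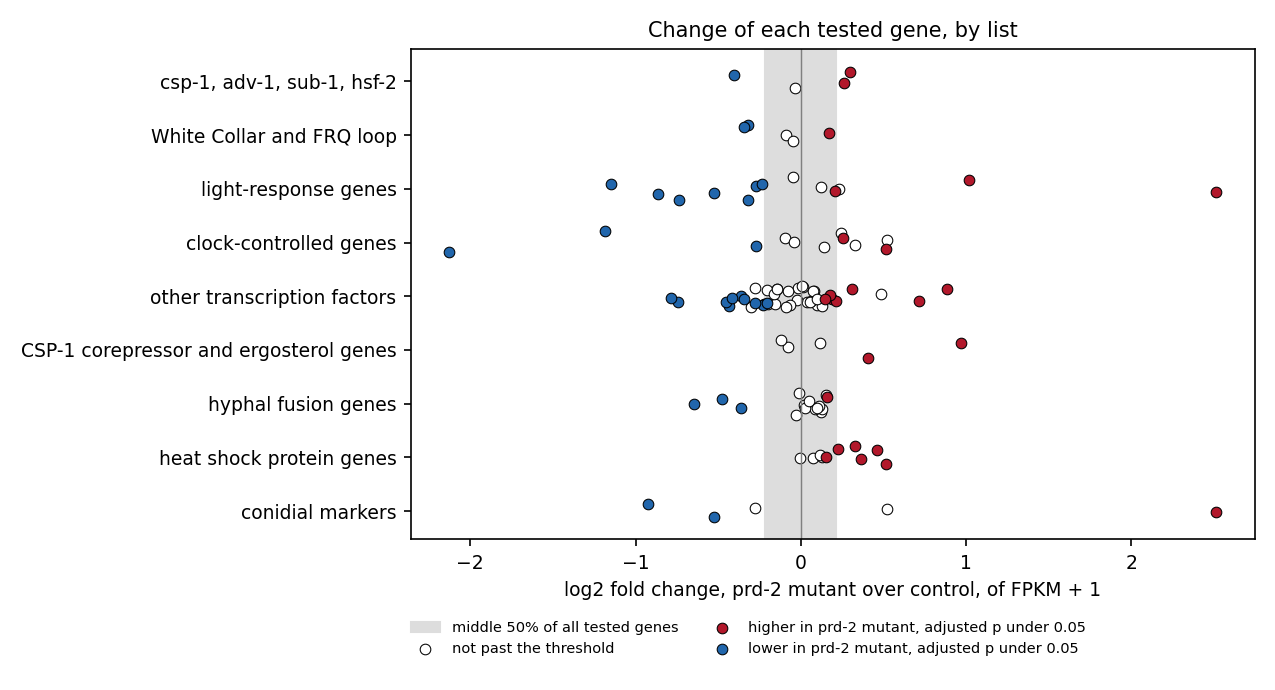
Log2 fold change of FPKM + 1, prd-2 mutant over control (horizontal axis), of each tested gene in 9 sets (vertical axis), with genes past an adjusted p of 0.05 in red (higher) or blue (lower) and the others in white. The grey band holds the middle 50% of all tested genes, and the heat shock list is the longest one with calls in 1 direction only.

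Genes with a symbol of their own were ranked by how closely their profile followed that of each member over the 6 cultures. The measure was the root mean square difference of log2(FPKM + 1) after subtraction of each gene's mean, over 1052 candidates. For csp-1, adv-1 and hsf-2 these profiles carry the strain difference, while that of sub-1 holds mostly differences between replicates. The match is a description of these 6 cultures, and the closest genes lie below the median candidate by selection. A gene flat over the 6 cultures would score 0.16 for csp-1, 0.21 for adv-1, 0.088 for sub-1 and 0.15 for hsf-2. Closest to csp-1 were pex33, a peroxisome gene (0.039), and mdm10, a mitochondrial outer membrane gene (0.041), against a median of 0.18 for all candidates. pex33 had a log2 fold change of 0.30 (limma adjusted p = 0.00703) and mdm10 of 0.24 (limma adjusted p = 0.0203). The call of mdm10 was lost without mutant replicate 1 or 2 or control replicate 1 or 2, at 0.20 to 0.25 log2 units (limma adjusted p from 0.051 to 0.068).

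Closest to adv-1 were ada-1, a developmental transcription factor gene, and gna-1, a G protein alpha subunit gene (0.048 each, median 0.27). ada-1 had a log2 fold change of -0.43 and gna-1 of -0.36 (limma adjusted p = 0.000615 for ada-1 and 0.00326 for gna-1). Among the genes closest to sub-1 was syn-1 (0.048, median 0.16), which did not pass the test (log2 fold change -0.06, limma adjusted p = 0.404). With quantile normalization syn-1 did pass (-0.15, limma adjusted p = 0.0476). Closest to hsf-2 was ccg-6, a clock-controlled gene, at 0.020, followed by dot at 0.037 (median 0.18). ccg-6 measured 5029, 4626 and 4391 FPKM in the mutants, against 3845, 3825 and 4108 FPKM in the controls, a level far above that of hsf-2. Its log2 fold change of 0.25 (limma adjusted p = 0.0309) lost its call in every fit without 1 culture except that without mutant replicate 3, at 0.20 to 0.29 log2 units (limma adjusted p from 0.0528 to 0.115). It was also lost on the TPM scale (0.22, limma adjusted p = 0.0604) and without a filter (adjusted p = 0.0701), and quantile normalization gave 0.44. dot rose by 0.25 log2 units (limma adjusted p = 0.0131), and its call was lost without control replicate 2 (0.22, limma adjusted p = 0.0546). The annotated spans of mdm10, ada-1, syn-1 and dot overlap those of neighbouring genes, so their values are uncertain.

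**Figure D5:**
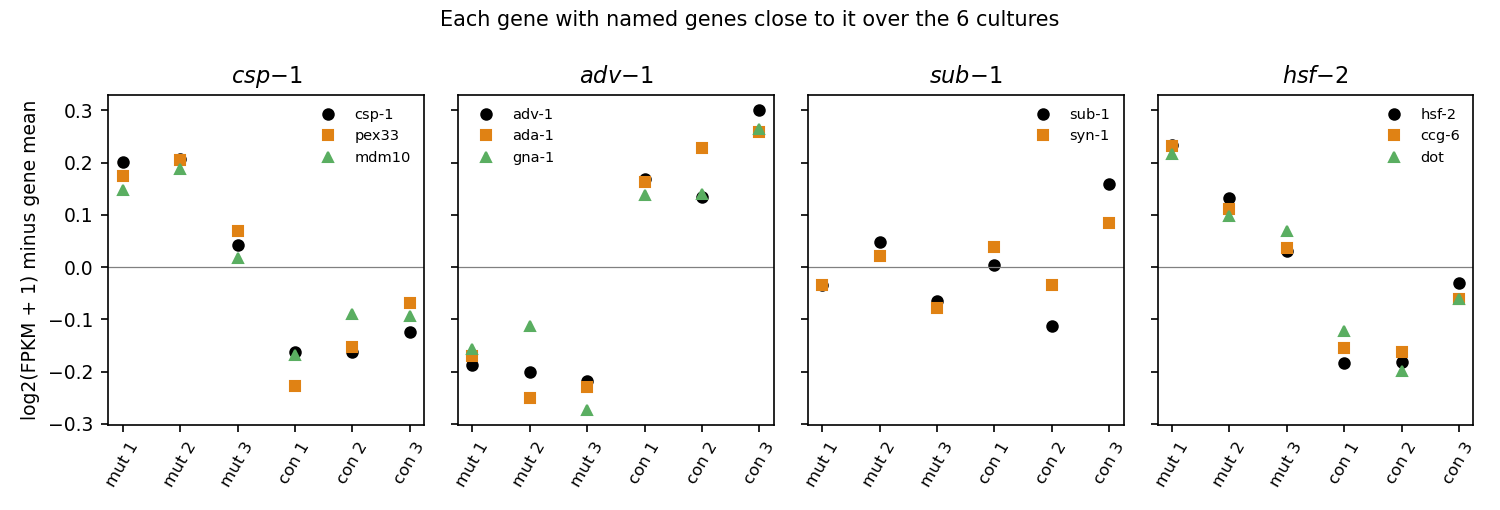
Log2(FPKM + 1) minus the gene's mean over the 6 cultures (vertical axis) for each of the 4 genes (black circles) and named genes close to it (orange squares and green triangles, with 1 gene for sub-1 and 2 for each of the others), in each prd-2 mutant (mut) and control (con) culture. The points of hsf-2 and ccg-6 nearly coincide, with a root mean square difference of 0.020.

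Finally, the genes next to each member in the NC12 annotation were examined. No annotated gene overlapped the span of csp-1, adv-1, sub-1 or hsf-2. Next to csp-1, NCU02716 measured 21.4, 22.2 and 21.6 FPKM in the mutants, against 19.2, 18.7 and 19.6 FPKM in the controls (log2 fold change 0.17, limma adjusted p = 0.0236). That call was lost without mutant replicate 2 or 3 or control replicate 2, at 0.16 to 0.18 log2 units (limma adjusted p from 0.052 to 0.0874), and on the TPM scale (0.14, adjusted p = 0.0608). On its other side, NCU02712 did not pass (log2 fold change 0.02, limma adjusted p = 0.742).

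Both neighbours of hsf-2 lay higher in every mutant culture than in any control culture, as did 30.5% of all tested genes. Only NCU08478 passed the test. NCU08478 measured 10.1, 9.24 and 8.88 FPKM in the mutants, against 7.30, 7.36 and 7.21 FPKM in the controls (log2 fold change 0.33, limma adjusted p = 0.00573). The DNA repair gene mus-27 measured 11.6, 10.8 and 11.6 FPKM in the mutants, against 9.33, 9.15 and 10.6 FPKM in the controls (log2 fold change 0.21, limma adjusted p = 0.0507). mus-27 passed the test without control replicate 3 (0.27, limma adjusted p = 0.0236), with median centring (0.22, adjusted p = 0.0332) and with quantile normalization (0.31, adjusted p = 0.0121). Next to adv-1, NCU07393 did not pass (log2 fold change 0.02, limma adjusted p = 0.825), and NCU07390 was listed at 0 in all 6 cultures. Next to sub-1, NCU16980 had a mean below 1 FPKM and was not tested.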

How the data were processed

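The authors deposited FPKM values, 1 per gene and culture, for 9730 genes and 6 cultures. Per the submitters' processing notes, STAR and Cuffnorm were used. The genome build, the annotation, any filter, the scaling between libraries and the use of strand are not given in the sources used here. Libraries were directional with paired 150 bp reads, per the labels' protocols. FPKM divides by transcript length and library size, so the values of all genes in a culture can depend on its most abundant ones. How far they do is unknown, since the scaling between libraries is not given. Absolute depth is unknown, and no counting interval or floor is given. Below 0.15 FPKM, 79.7% to 90.1% of ratios to control replicate 1 lay within 1% of ratios of small whole numbers. By these, 1 fragment was worth 0.958 to 1.13 times as much FPKM as in control replicate 1.

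Symbols and gene neighbours came from a RefSeq table of assembly NC12, which held 9729 of the locus tags. No coordinates are given, since the build of the values is not named. No sequence table of this organism was used here. NCU01019 as prd-2 comes from knowledge of the study.

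Values were compared as log2(FPKM + 1) in genes with a mean of at least 1 FPKM, with limma 3.58.1 (mean-variance trend) in R 4.3.3, and p-values were adjusted by Benjamini-Hochberg over all 7797 tested genes. Fold changes on this scale understate the change of low genes. The labels give no batch and do not say whether cultures were started separately beyond naming biological triplicates. Ratios used Python 3.11.15 and scipy 1.17.1. On simulated data with 200 genes changed by 1 log2 unit, 179 were called, with 7 unchanged genes among 7753 tested. All members changed by less than 1 log2 unit, so this rate does not apply to changes of their size. Nor does it cover data in which 47.8% of tested genes were called. The members, lists and tests were chosen with earlier results of these data known. Named genes were the members, the White Collar and FRQ loop, the called genes with the largest rise and fall of each list (3 each for other transcription factors), the 2 closest profiles per member, neighbours, prd-2 and ck-1a. For sub-1, 1 of these 2 is not reported here. Some symbols were not matched in the table and were left out, and bek-1, clr-2, ccg-4 and con-13 were below the filter. The alternatives were another pseudocount, other filters and scalings, a fit without the variance trend, the replicate number as a block, and each culture left out in turn.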

Additional observations from a re-analysis of the deposited data

How the results depend on the processing

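csp-1 and adv-1 kept their direction and their call in all 14 alternatives, from 0.26 to 0.35 log2 units for csp-1 (limma adjusted p from 0.00337 to 0.0258) and from -0.44 to -0.35 for adv-1 (adjusted p from 0.00128 to 0.00731). hsf-2 kept its direction and lost its call on the TPM scale (0.23) and with the replicate block (0.26), and was 0.21 to 0.31 when 1 culture was left out (limma adjusted p over all 14 from 0.0168 to 0.0766). sub-1 changed sign with quantile normalization (0.029) and ranged from -0.10 to 0.037 when a culture was left out, with no call in any alternative. The list of CSP-1 corepressor and ergosterol genes had 1 call without a filter, on the TPM scale and with the block, and 1 to 2 when a culture was left out. Leaving out a culture gave 3 to 6 calls of clock-controlled genes and 3 to 5 of heat shock protein genes. The csp-1 to hsf-2 ratio difference ran from -0.0072 to 0.059. Other genes without a call changed sign: NCU02712 on the TPM scale (-0.011) and with quantile normalization (-0.068; -0.013 to 0.049 when a culture was left out), and NCU07393 on the TPM scale (-0.0075; -0.019 to 0.066). The cause was not tested. xlr-1 was below a minimum mean of 5 FPKM and has no value there.

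Across genes, mutant and control cultures with the same number had correlations of -0.104, -0.175 and 0.068 between their deviations from their own strain's mean, so the numbers are not treated as pairs. With the replicate block 3363 genes were called, against 3725 without it, and frh, ada-6, ham-2, ccg-6 and NCU02716 lost their calls. The precision was judged from the spread between cultures. Since FPKM gives no depth, the share of counting noise in that spread is unknown.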
